A study of Bos taurus with 8 samples.

Results

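Transcripts of cell cycle and DNA replication genes were measured in whole blood of cows after contact with phenolic compounds extracted from cowpea leaf (CPE), or with none added (CONTROL). The set was chosen by gene symbol in the authors' table: cyclins A, B, D and E, their kinases and inhibitors, genes named CDC (CDC42 and its relatives left out), MCM replication proteins, BUB, PLK and Aurora kinases, E2F factors, CENP proteins, and TOP2A, RB1, RBL1, RBL2, PCNA and MKI67. It held 91 genes with 192 probes, out of 17025 named genes on the array. Of these, 35 genes with 47 probes could be tested, out of 4786 genes tested in all. Another 12 genes had probes in bright parts of every array but were too dim on some arrays, and 44 had no probe that lay in a bright part of all 8 arrays. The rule used symbols and no measured value, and no probe bore the symbol MKI67.

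The CPE group was blood that received 10 µg/ml extract and stood at 37 °C in 5% CO2 for 30 min, and the CONTROL group was blood kept in the same way without extract. The blood came from 5 female Holstein Friesian cows that had received a probiotic for 60 days before collection, so both groups share that treatment. RNA was isolated after differential lysis of red and white cells, pooled by group according to the series text, and labelled with Cy3 for 4 arrays per group. The 4 arrays of a group may therefore be technical replicates, and each SE and p below describes the spread between arrays and not between cows. The animals' age and the make-up of each pool are not given in the sources used here.

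A dividing cell passes through stages that are set by cyclins bound to cyclin-dependent kinases (CDKs). D-type cyclins with CDK4 or CDK6 act early and lead to phosphorylation of the retinoblastoma protein RB1, which releases E2F factors that switch on replication genes. The MCM helicase is loaded at replication origins before S phase, and cyclin B with CDK1, the BUB checkpoint proteins and the anaphase-promoting complex govern mitosis. In peripheral blood most cells are resting or terminally differentiated, with neutrophils, monocytes and red cells past division and most lymphocytes out of the cycle until stimulated. Roles named below are known mainly from human, mouse and yeast cells.

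Each array probe is a 60-base DNA sequence, and the values below are those of single probes. The following are shown because the results turn on them: both CCNB1 probes, in which capitals mark a run of 22 bases that they share, the pairs for TOP2A, CDC5L and CDKN1A, whose probes gave changes of different size, and the probes of MCM4, MCM6, CDC34 and RB1. They are copied from the authors' deposited table of averages.
CCNB1, first probe: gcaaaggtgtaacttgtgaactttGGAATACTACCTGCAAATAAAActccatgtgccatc
CCNB1, second probe: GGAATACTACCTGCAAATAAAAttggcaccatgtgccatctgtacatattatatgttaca
TOP2A, first probe: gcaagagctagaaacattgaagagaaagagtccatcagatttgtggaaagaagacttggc
TOP2A, second probe: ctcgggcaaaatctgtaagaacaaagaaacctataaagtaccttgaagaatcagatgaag
CDC5L, first probe: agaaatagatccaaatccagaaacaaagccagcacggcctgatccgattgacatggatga
CDC5L, second probe: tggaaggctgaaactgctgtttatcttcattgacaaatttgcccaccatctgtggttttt
CDKN1A, first probe: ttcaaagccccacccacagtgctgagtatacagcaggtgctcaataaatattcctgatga
CDKN1A, second probe: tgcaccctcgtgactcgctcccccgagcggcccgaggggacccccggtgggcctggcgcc
MCM4: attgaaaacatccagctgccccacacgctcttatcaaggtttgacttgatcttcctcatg
MCM6: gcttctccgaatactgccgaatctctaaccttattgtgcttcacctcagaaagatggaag
CDC34: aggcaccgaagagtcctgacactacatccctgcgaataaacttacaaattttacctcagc
RB1: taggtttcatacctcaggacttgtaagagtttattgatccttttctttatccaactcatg
The first probe of each pair has the higher mean signal and stands for the gene. The share of G and C bases was 80% in the second CDKN1A probe, against 45% in the first, and between 35% and 45% in the other 10 probes printed.

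Large parts of each array were dim, so only spots in bright surroundings on all 8 arrays (13028 of 43803), and called well above background on all 8 by the scanner software, were used (7130 spots). A level below is the log2 processed signal minus the array's 75th percentile over these spots, so that 0 is that percentile and −2 lies 2 log2 units under it. The CPE arrays shared 1 slide and the CONTROL arrays another, and scan date and spot grid version differed as well, so slide and group cannot be told apart. The label of whole blood fits its markers: HBB of red cells, PTPRC of leukocytes, CD3D of T cells and CXCR2 of neutrophils all passed the filter. Marker levels differed between the groups. Of the T cell markers 5 of 8 tested were higher in CPE and 0 lower, and of the NK cell markers 2 of 2 were higher. Of the neutrophil markers 0 of 4 were higher and 3 lower, and of the monocyte markers 0 of 3 were higher and 1 lower. Over all genes 45.6% were called, with 19.6% higher and a larger share lower, and no marker list was tested against that share. The summed linear level of the T cell markers, in multiples of the 75th percentile, was 13.2 to 14.5 on CPE arrays and 9.85 to 11.2 on CONTROL arrays. The sums were 11.7 to 13.5 in CPE and 5.09 to 6.07 in CONTROL for the NK cell markers, and 7.43 to 7.99 in CPE and 10.1 to 11.2 in CONTROL for the monocyte markers. They overlapped for the B cell markers, 12.4 to 14.5 in CPE and 13.3 to 14.6 in CONTROL, and for the neutrophil markers, 39.6 to 43.0 in CPE and 38.9 to 43.5 in CONTROL. Taken singly, the 4 neutrophil markers tested had log2 changes from −1.17 to 0.19, with a median of −1.01. PPBP, the 1 platelet marker tested, was higher in CPE, and HBB did not pass the test. In the background-subtracted signal described in the next paragraph HBB was also higher in CPE (log2 0.32), as were 6 of 8 T cell markers, while 2 of 4 B cell markers and 2 of 3 monocyte markers were lower. In that signal 60.0% of all genes were called, 27.2% higher and 32.8% lower. None of the 7 markers of erythroid and myeloid precursors could be tested. The part of these differences in the results below was not tested, and in bulk RNA fewer cells of a type and less RNA per cell cannot be told apart.

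CPE array 3 stood apart for a reason found in the file headers. The scanner software corrected the signal of that array with a fitted multiplicative surface, whose mean is given there as 1.68, and applied none to the other 7 arrays. Among the spots used, this shifted log2 signal on CPE array 3 by −2.42 to 0.77 relative to the background-subtracted signal, whereas processed and background-subtracted signals were equal on the other 7 arrays. With processed signal, CPE array 3 correlated with the other CPE arrays at r = 0.970 to 0.979 across probes, and with background-subtracted signal at 0.991 to 0.998. Results are therefore given from processed signal, with the value from background-subtracted signal beside them where it matters. That second value was chosen after seeing the data.

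**Figure D1:**
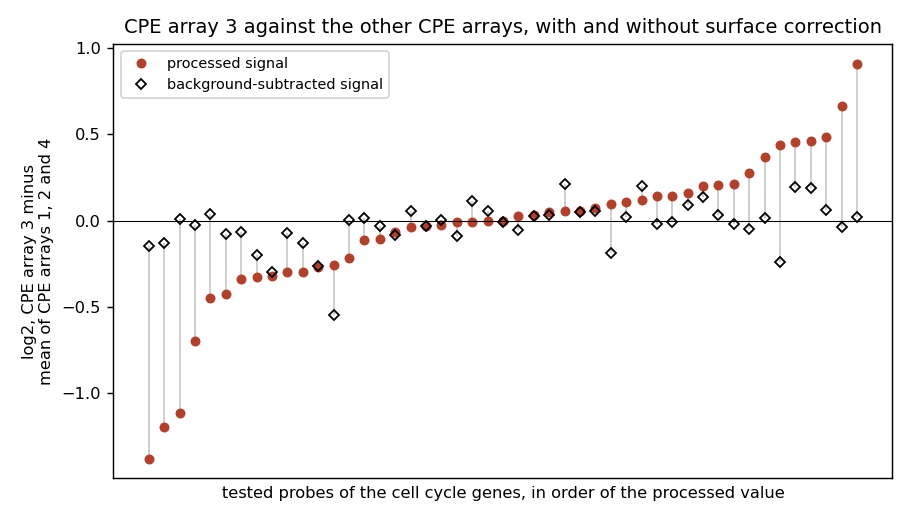
Log2 level on CPE array 3 minus the mean of CPE arrays 1, 2 and 4 (y axis) for the 47 tested probes of the cell cycle genes (x axis, in order of the processed value); filled circles are processed signal, open diamonds background-subtracted signal, and a grey line joins both values of a probe. Most diamonds lie closer to 0 than their circles, and the lowest circles include TOP2A and BUB1.

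Of the 35 genes tested, 12 were higher in CPE, 5 were lower and 18 did not pass the threshold of 0.05 on limma's adjusted p, where limma is a linear model with variances moderated over all genes. Genes of the replication machinery (TOP2A, MCM4 and MCM6), of mitosis (CCNB1, BUB1B) and of the centromere (CENPN, CENPT) were among the higher ones, and 2 D-type cyclins, CDKN2B, RB1 and CDC23 were the lower ones. Such calls were common on these arrays: of all 4786 genes, 45.6% were called, 19.6% higher and 26% lower. The share called among the cell cycle genes, 48.6%, was near that background, while their calls split the other way, with 34.3% higher and 14.3% lower. The median log2 change was 0.13 over the cell cycle genes and −0.03 over all genes. A count of genes whose groups did not overlap gave 18 of 35, 12 higher and 6 lower, and 49.4% of all genes did not overlap, 20.4% higher and 28.9% lower. With background-subtracted signal 13 genes were higher and 9 lower, against 60.0% of all genes called, 27.2% higher and 32.8% lower. In that signal 20 genes did not overlap, 13 higher and 7 lower, against 58.0% of all genes, 25.5% higher and 32.4% lower. Without CPE array 3, 12 were higher and 6 lower, against 24.7% of all genes higher and 30.0% lower. Over the whole array, dim areas included, 5 of 40 genes were higher and 6 lower, against 31.2% of all genes called, 10.7% higher and 20.5% lower. Scaling moved the split: with no scaling between arrays 2 were higher and 2 lower, against 3.87% of all genes higher and 10.9% lower. With scaling to the 75th percentile over all spots, dim areas included, 0 were higher and 14 lower, against 0.104% of all genes higher and 48.7% lower. That scaling shifted the median of all genes by −1.07.

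**Figure D2:**
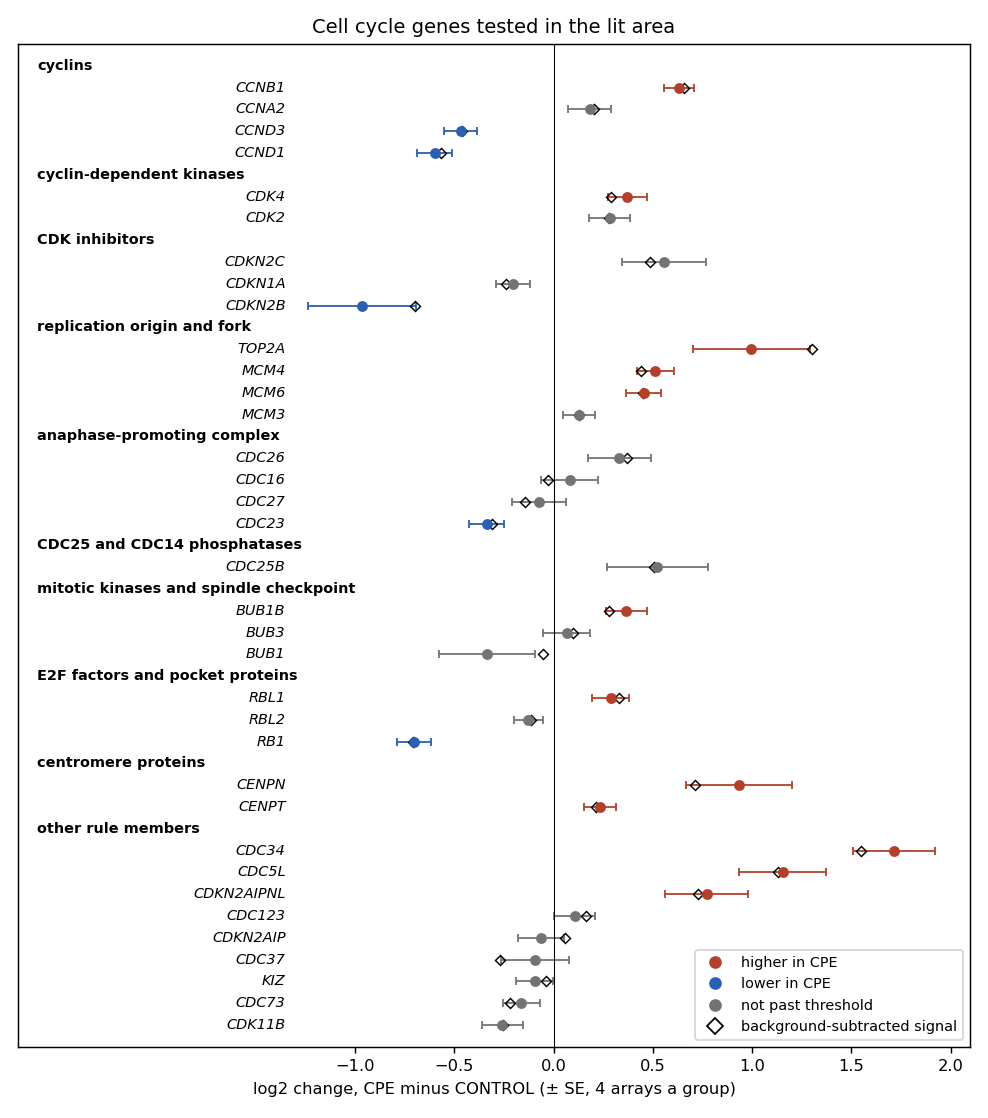
Log2 change of the 35 tested genes, CPE minus CONTROL (x axis), by role; circles with bars are the change and its SE from processed signal (4 arrays a group), coloured by whether the gene passed the threshold, and open diamonds the change from background-subtracted signal. CDC34 has the largest rise (1.72) and CDKN2B the largest fall (−0.96), and the diamonds of TOP2A, BUB1, CDKN2B and CENPN lie farthest from their circles.

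Among the genes of replication origins and forks, 3 of 4 tested were higher in CPE and 0 lower, with a median log2 change of 0.48, out of 10 such genes on the array. This count and those of the other roles below rest on few genes each, where 45.6% of all genes were called and 19.6% were higher. They are descriptions, and whether any role differed from all genes was not tested. MCM4, a subunit of the replicative helicase, had levels of −1.78, −1.54, −1.60 and −1.78 on CPE arrays 1 to 4, against −2.19, −2.14, −2.33 and −2.09 on CONTROL arrays 1 to 4. All CPE arrays lay above all CONTROL arrays, and MCM4 was 1.43-fold higher (log2 change 0.51, SE 0.09, limma adjusted p = 0.00221). With local centring, in which the median deviation of the nearest spots on each array is subtracted, the change in MCM4 was 0.098 and did not pass (limma adjusted p = 0.564). MCM6, another subunit of the same ring, had levels of −1.14, −1.40, −1.22 and −1.11 in CPE, against −1.72, −1.73, −1.67 and −1.57 in CONTROL. No CPE value of MCM6 fell within the CONTROL range (log2 0.45, SE 0.09, limma adjusted p = 0.00339). MCM3, also a subunit, differed by less at its brightest probe (log2 0.13, SE 0.08, limma adjusted p = 0.22). Its other probes gave 0.59 (SE 0.18, limma adjusted p = 0.0239) and −0.06 (SE 0.20, limma adjusted p = 0.832), so the probes of MCM3 did not give 1 answer. No probe bears the symbol MCM2 in the table, but 3 probes are described there as MCM2, and the 1 of them that could be tested was higher in CPE (log2 0.58, SE 0.13, limma adjusted p = 0.00591). PCNA, the sliding clamp of DNA polymerases, MCM5, MCM7, CDC6, CDC7 and CDC45 had no probe in a bright part of all arrays.

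TOP2A encodes topoisomerase II alpha, which untangles DNA in S phase and mitosis. Its first probe had levels of −1.43, −1.47, −2.82 and −1.44 on CPE arrays 1 to 4, against −2.79, −2.82, −2.65 and −2.88 in CONTROL. CPE array 3 lay among the CONTROL arrays and the other CPE arrays well above them, and the change was 2.00-fold (log2 1.00, SE 0.29, limma adjusted p = 0.0221). In background-subtracted signal CPE array 3 read −1.59, the groups did not overlap, and the change was 1.30 (limma adjusted p = 1.44e-06). Without CPE array 3 it was 1.34 (limma adjusted p = 1.2e-05). Leaving out CPE array 1, 2 or 4 or CONTROL array 2 or 4 ended the call in processed signal, at changes of 0.88, 0.89, 0.88, 0.98 and 0.97 with limma adjusted p from 0.0504 to 0.0593. The second TOP2A probe was also higher in CPE, with levels of −3.43, −3.29, −3.44 and −3.29, against −3.88, −4.0, −3.74 and −3.62 in CONTROL (log2 0.45, SE 0.10, limma adjusted p = 0.00610).

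**Figure D3:**
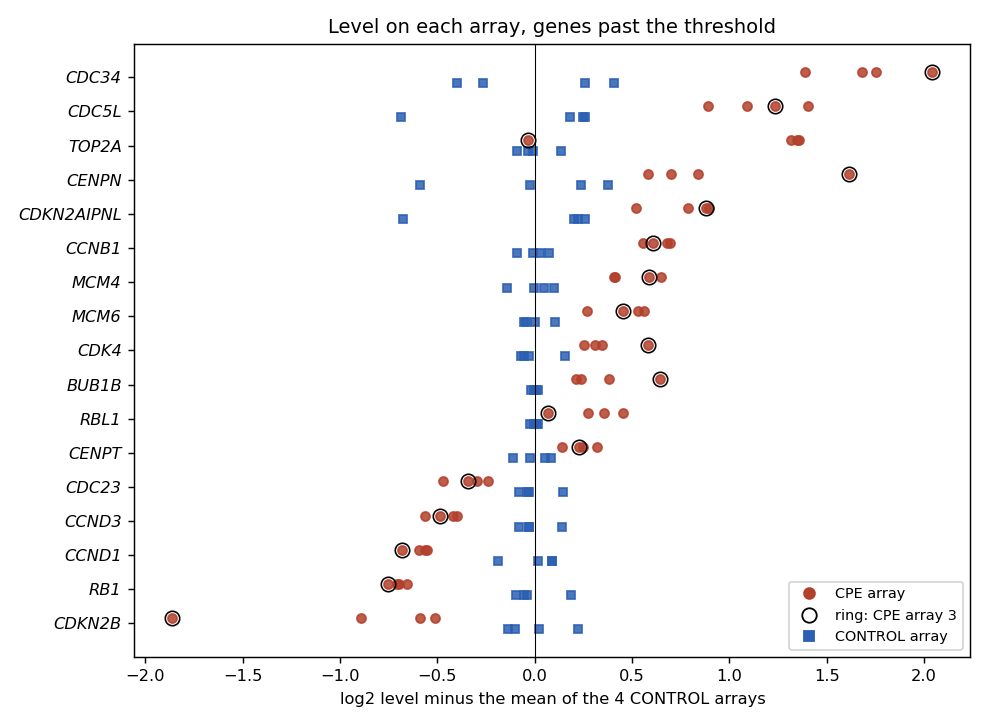
Level on each array for the 17 genes past the threshold, as log2 level minus the mean of the 4 CONTROL arrays (x axis); circles are CPE arrays, with a ring round CPE array 3, and squares are CONTROL arrays. The ringed circle of TOP2A lies among the CONTROL squares, and CDKN2B and CENPN have their farthest CPE value on the same array.

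The cyclins tested did not move together: 1 of 4 was higher in CPE and 2 were lower. CCNB1, the cyclin B1 that drives entry into mitosis, had levels of −2.39, −2.53, −2.48 and −2.41 in CPE, against −3.18, −3.10, −3.06 and −3.02 in CONTROL. All CPE values lay above all CONTROL values, and CCNB1 was 1.55-fold higher (log2 change 0.63, SE 0.08, limma adjusted p = 0.000255). Its second probe gave 0.74 (SE 0.10, limma adjusted p = 0.000412), and as both probes contain the 22-base run printed above in capitals they are not independent. CCNA2, the cyclin A2 of S and G2 phase, differed by 0.18 and overlapped (SE 0.11, limma adjusted p = 0.198).

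Both D-type cyclins tested fell. CCND3, a D-type cyclin prominent in lymphocytes, had levels of 3.91, 3.77, 3.84 and 3.93 in CPE, against 4.30, 4.30, 4.25 and 4.47 in CONTROL (log2 −0.47, SE 0.08, limma adjusted p = 0.00190). There was no overlap at that probe, while its second probe differed by −0.25 and overlapped (SE 0.17, limma adjusted p = 0.249). CCND1, the D-type cyclin better known from epithelial and other non-blood cells, had levels of −4.62, −4.63, −4.75 and −4.66 in CPE, against −3.98, −4.05, −4.25 and −3.98 in CONTROL (log2 −0.60, SE 0.09, limma adjusted p = 0.000733). All CPE values were the lower ones, but the signal was low, and with the normexp background correction the change was −0.07 and did not pass.

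The kinases that these cyclins bind were measured in part. CDK4, the partner of D-type cyclins, had levels of −1.57, −1.62, −1.29 and −1.52 in CPE, against −1.90, −1.93, −1.94 and −1.72 in CONTROL, with no overlap (log2 0.37, SE 0.10, limma adjusted p = 0.0135). CDK2, which works with cyclins E and A, differed by 0.28 and overlapped (SE 0.10, limma adjusted p = 0.0522), and in background-subtracted signal by 0.28 with a limma adjusted p of 0.0282. Leaving out CPE array 2 or CONTROL array 4 also brought CDK2 past the threshold, at 0.37 and 0.32. CDK1 and CDK6 had no probe in a bright part of all arrays.

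Of the CDK inhibitors, 0 of 3 tested were higher and 1 was lower. CDKN2B, which encodes the CDK4 and CDK6 inhibitor p15, had levels of −4.75, −5.05, −6.02 and −4.67 in CPE, against −4.26, −4.14, −4.30 and −3.94 in CONTROL. All CPE arrays lay below all CONTROL arrays, with CPE array 3 lowest (log2 −0.96, SE 0.27, limma adjusted p = 0.0181). The change was −0.70 in background-subtracted signal, −0.55 with local centring, and −0.14, not past the threshold, with normexp. Without CONTROL array 4 it was −0.89 with a limma adjusted p of 0.0514. CDKN2C, the inhibitor p18, had levels of 0.19, 1.17, 0.29 and 0.29 in CPE, against 0.10, 0.00, −0.08 and −0.31 in CONTROL. No values overlapped in processed signal, but CPE array 2 stood far above the rest, and the change did not pass (log2 0.56, SE 0.21, limma adjusted p = 0.0585). Without CPE array 2 it was 0.33 in processed signal, with a limma adjusted p of 0.0419. In background-subtracted signal CPE array 3 read 0.0045, within the CONTROL range. The groups of CDKN2C overlapped there, and the change was 0.48 (limma adjusted p = 0.0974).

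CDKN1A encodes p21, the inhibitor induced by p53. Its first probe had levels of −1.56, −1.54, −1.49 and −1.79 in CPE, against −1.38, −1.36, −1.38 and −1.45 in CONTROL (log2 −0.20, SE 0.09, limma adjusted p = 0.0832). In background-subtracted signal the same probe passed at −0.24 (limma adjusted p = 0.0122), and it also passed without CPE array 3, at −0.24. Its second probe, with 80% G and C, pointed the other way, with levels of −3.16, −3.16, −3.52 and −3.23 in CPE, against −3.78, −4.05, −4.27 and −4.38 in CONTROL (log2 0.85, SE 0.15, limma adjusted p = 0.00160). The groups did not overlap at either probe, so no direction can be given for CDKN1A.

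In the group of E2F factors and pocket proteins, which hold E2F in check, 1 of 3 genes tested was higher and 1 lower, and all 3 are pocket proteins. RB1 had levels of −5.25, −5.30, −5.35 and −5.29 in CPE, against −4.63, −4.65, −4.41 and −4.69 in CONTROL, with no overlap (log2 −0.70, SE 0.09, limma adjusted p = 0.000278). The signal was low, and with normexp the change was −0.12 and did not pass. RBL1, the pocket protein p107, had levels of −2.27, −2.17, −2.56 and −2.35 in CPE, against −2.61, −2.61, −2.63 and −2.65 in CONTROL, where CPE array 3 came closest to the CONTROL arrays (log2 0.29, SE 0.09, limma adjusted p = 0.0335). Background-subtracted signal gave 0.33 (limma adjusted p = 0.00155), local centring gave 0.16, and leaving out any array other than CPE array 3 ended the call, at 0.23 to 0.29. Another RBL1 probe, well above background on 4 CPE and 3 CONTROL arrays, was not tested. It had mean levels of −5.07 in CPE and −5.08 in CONTROL, with overlap. RBL2, the pocket protein p130 of resting cells, differed by −0.13 (SE 0.07, limma adjusted p = 0.176). None of the E2F genes could be tested.

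All centromere genes tested were higher in CPE, but these were 2 of 16 on the array. CENPN, which binds the centromeric nucleosome, had levels of −2.11, −2.37, −1.33 and −2.25 in CPE, against −2.97, −2.57, −2.71 and −3.54 in CONTROL (log2 0.93, SE 0.27, limma adjusted p = 0.0198). All CPE values were above the CONTROL values, CPE array 3 was highest, background-subtracted signal gave 0.71, and local centring gave 0.62. A second CENPN probe was well above background on all 4 CPE arrays and on 0 of 4 CONTROL arrays, with mean levels of −4.36 ± 0.07 for CPE arrays and −5.95 ± 0.22 for CONTROL arrays (SD over 4 arrays). It was at least 1.88-fold higher in CPE, when a CONTROL value is taken as no lower than the dimmest signal still called well above background on that array. This probe was not among those tested and was bright in CPE only, so the fold is a description. Over all lit spots not well above background on all 8 arrays, 34.8% were above on more CPE arrays and 7.67% on more CONTROL arrays. CENPT, which links the centromere to the outer kinetochore, had levels of −0.25, −0.36, −0.27 and −0.18 in CPE, against −0.45, −0.53, −0.61 and −0.42 in CONTROL (log2 0.23, SE 0.08, limma adjusted p = 0.0401). The groups did not overlap, and its second probe gave 0.38 (SE 0.09, limma adjusted p = 0.00646). Leaving out CPE array 1 or 4 or CONTROL array 1, 2 or 3 ended the call of the first probe, at 0.20 to 0.25.

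Of the mitotic kinases and spindle checkpoint genes, 1 of 3 tested was higher and 0 lower. BUB1B, the checkpoint protein BubR1, had levels of −3.42, −3.25, −2.99 and −3.40 in CPE, against −3.62, −3.64, −3.62 and −3.65 in CONTROL, with no overlap (log2 0.37, SE 0.10, limma adjusted p = 0.0188). BUB3, which recruits it to kinetochores, differed by 0.07 (SE 0.12, limma adjusted p = 0.670). BUB1, the checkpoint kinase, had levels of −4.13, −4.16, −5.27 and −4.16 in CPE, against −4.23, −4.10, −4.11 and −3.94 in CONTROL. CPE array 3 alone lay far below the rest there, and read −4.14 in background-subtracted signal. The change of −0.33 did not pass (SE 0.24, limma adjusted p = 0.283), and it was −0.05 in background-subtracted signal and −0.06 without CPE array 3. Another BUB1 probe, well above background on 4 CPE and 3 CONTROL arrays, had levels of −2.75, −3.43, −3.48 and −3.76 in CPE, against −4.44, −4.43, −4.26 and −5.22 in CONTROL. With the filter relaxed to all arrays of at least 1 group, this probe stood for BUB1 and gave 1.24. It passed that filter only through the CPE arrays, where it was the brighter, so this change is a description and not a test. The BUB1 probes thus differed in what they showed.

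Of the anaphase-promoting complex, the ubiquitin ligase that ends mitosis, 0 of 4 genes tested were higher and 1 was lower. CDC23, a subunit of the complex, had levels of −1.98, −2.15, −2.02 and −1.92 in CPE, against −1.71, −1.76, −1.72 and −1.53 in CONTROL, with no overlap (log2 −0.34, SE 0.09, limma adjusted p = 0.0125; −0.14 with local centring). CDC26, a small subunit, differed by 0.33 and overlapped (SE 0.16, limma adjusted p = 0.116), and passed at 0.46 without CPE array 2. CDC16 and CDC27 differed by 0.08 (SE 0.14) and −0.07 (SE 0.14), and the second CDC16 probe by −0.09 (SE 0.09). CDC25B, a phosphatase that activates CDK1 and the 1 gene tested of 5 CDC25 and CDC14 phosphatases, differed by 0.52 and overlapped (SE 0.25, limma adjusted p = 0.118), and passed at 0.72 without CONTROL array 3. Without CONTROL array 4 the change in CDC25B was 0.26 (limma adjusted p = 0.196).

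The rule by symbol also took in genes whose products act outside the core cycle, and the largest changes were among them, with 3 of 9 tested higher and 0 lower. CDC34, a ubiquitin-conjugating enzyme that in yeast is needed for entry into S phase, had levels of −0.89, −0.82, −0.53 and −1.18 in CPE, against −2.17, −2.97, −2.31 and −2.84 in CONTROL. The groups lay far apart, and CDC34 was 3.29-fold higher (log2 change 1.72, SE 0.21, limma adjusted p = 0.000267; 1.55 in background-subtracted signal and 1.08 with local centring). CDC34 was tested with a single probe. That probe was not kept at a lit limit of 1 log2 unit, nor when more neighbouring spots were used to judge brightness. The other CDC34 probe, which was lit on none of the arrays, was well above background on 2 CPE and 4 CONTROL arrays and was not tested. CDKN2AIPNL, a gene named for its similarity to CDKN2AIP, had levels of −0.96, −0.85, −0.87 and −1.23 in CPE, against −1.49, −1.55, −1.53 and −2.42 in CONTROL (log2 0.77, SE 0.21, limma adjusted p = 0.0157). The groups did not overlap, CONTROL array 4 was far below the other CONTROL arrays, and without it the change was 0.54 (limma adjusted p = 0.00507). With local centring it was 0.30.

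CDC5L, a component of the spliceosome, had levels of −0.05, 0.47, 0.30 and 0.15 in CPE, against −0.69, −0.68, −0.75 and −1.62 in CONTROL at its first probe. The groups did not overlap, again with CONTROL array 4 lowest (log2 1.15, SE 0.22, limma adjusted p = 0.00278). At its second probe the levels were −0.89, −1.10, −0.88 and −0.82 in CPE, against −1.02, −0.96, −0.94 and −0.76 in CONTROL. That probe showed overlap and a change of −0.0032 (SE 0.09, limma adjusted p = 0.980), so the rise of CDC5L rests on 1 of its probes. CDC123, an assembly factor of the translation initiation factor eIF2, differed by 0.11 (SE 0.10, limma adjusted p = 0.417) at its first probe and by 0.61 (SE 0.16, limma adjusted p = 0.0142) at its second. CDC37, a co-chaperone of HSP90, and CDK11B (CDC2L1 in the files), a kinase of the transcription and splicing machinery, did not pass at any probe in processed signal. In background-subtracted signal their brightest probes were lower, at −0.27 (limma adjusted p = 0.0298) and −0.26 (limma adjusted p = 0.0358). Their second probes did not pass there, at −0.14 (limma adjusted p = 0.0606) and −0.10 (limma adjusted p = 0.156). CDK11B also passed without CPE array 2, at −0.31. CDC73, a subunit of the PAF1 complex of transcription, was lower in background-subtracted signal, at −0.22 (limma adjusted p = 0.0249). In processed signal it differed by −0.16 (limma adjusted p = 0.189). CDKN2AIP and KIZ, the centrosome protein kizuna (PLK1S1 in the files), differed by −0.06 (SE 0.12) and −0.09 (SE 0.09).

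How far different probes of 1 gene gave the same answer could be set out for 11 genes with 2 or 3 tested probes. In 7 of them all probes had the same direction, against 583 of 965 genes over the whole lit area (60.4%). The median gap between a gene's highest and lowest probe was 0.22 on the log2 scale in the cell cycle genes and 0.39 over all genes. CCNB1, CENPT and TOP2A passed the threshold upwards at each of their probes, while CDC5L, CDKN1A, CDC123, MCM3 and CCND3 passed at 1 probe only.

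**Figure D4:**
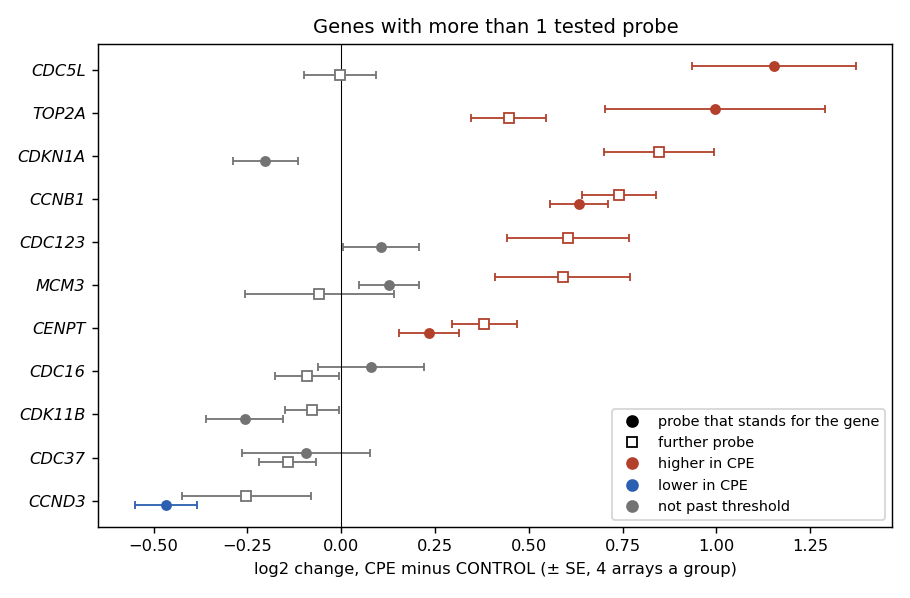
Log2 change, CPE minus CONTROL, with its SE (x axis, 4 arrays a group) for each probe of the 11 genes with more than 1 tested probe; filled circles are the probe that stands for the gene, open squares further probes, and colours show whether a probe passed the threshold. CDC5L and CDKN1A have the widest gaps, 1.16 and 1.05.

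Calls differed with the brightness of the probe, over all genes as well. Of all genes with a mean level under −4, 12.6% were higher and 35.6% lower in CPE (540 genes), against 22.7% and 21.1% of those at 0 and over (1349 genes). The cell cycle genes under −4 were BUB1, CCNA2, CCND1, CDKN2B and RB1, of which 0 were higher and 3 lower. Those from −4 to −2 were 9 genes, with 5 higher (CCNB1, TOP2A, CENPN, BUB1B and RBL1) and 0 lower, where 19.4% of all genes were higher and 29.3% lower. Those from −2 to 0 were 15 genes, with 7 higher and 1 lower (CDC23), where 19.6% of all genes were higher and 23.6% lower. Those at 0 and over were 6 genes, with 0 higher and 1 lower (CCND3).

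**Figure D5:**
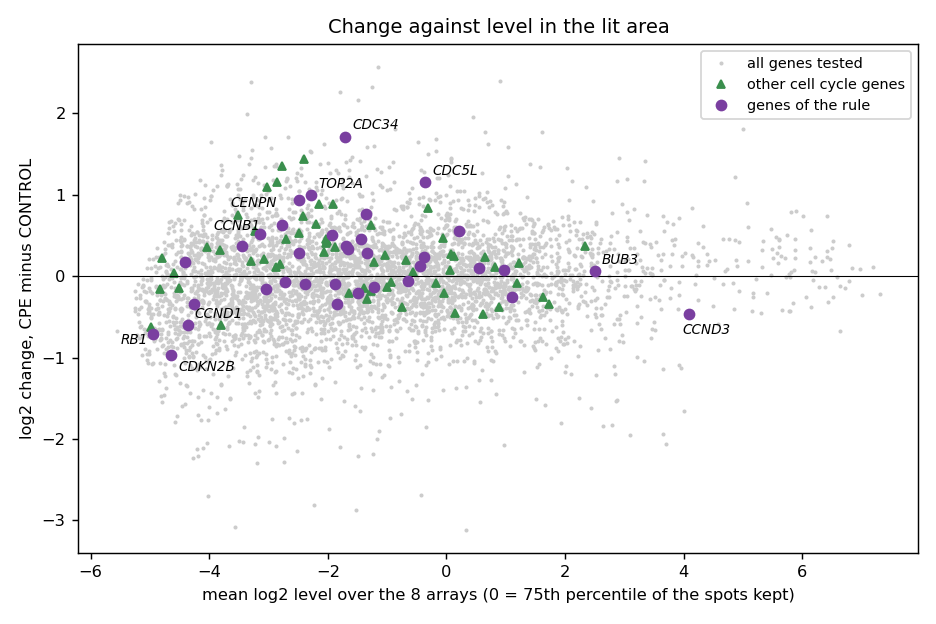
Log2 change, CPE minus CONTROL (y axis), against the mean log2 level of the probe over the 8 arrays (x axis); small grey points are all 4786 genes tested, purple circles the 35 cell cycle genes and green triangles the 58 tested genes of the wider cell cycle list. RB1, CCND1 and CDKN2B lie at the dim end, where grey points fall below 0 more often, and CDC34, CDC5L, TOP2A and CENPN lie at middle levels.

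Of 146 further genes of the cycle and of replication, 140 were on the array and 58 could be tested, with 16 higher in CPE and 7 lower. Their median log2 change was 0.21, against −0.03 over all genes, and with background-subtracted signal 22 were higher and 8 lower. The share called was 39.7%, against 45.6% of all genes, and in background-subtracted signal 51.7%, against 60.0%. A smaller share of these genes was therefore called than of all genes. In both signals more of their calls were higher than lower, whereas over all genes more were lower. The largest rises were those of ZWINT, a kinetochore scaffold protein (log2 1.44, SE 0.11, limma adjusted p = 2.25e-05), GINS2, a subunit of the replicative helicase complex (log2 1.35, SE 0.18, limma adjusted p = 0.000441), and ASF1B, a histone chaperone of replicating chromatin (log2 1.16, SE 0.22, limma adjusted p = 0.00260). The largest falls were those of PRIM1, the catalytic subunit of DNA primase (log2 −0.62, SE 0.10, limma adjusted p = 0.001), LIN54, a subunit of the DREAM complex (log2 −0.60, SE 0.21, limma adjusted p = 0.0393), and ANAPC11, a subunit of the anaphase-promoting complex (log2 −0.46, SE 0.15, limma adjusted p = 0.0300). The groups overlapped for LIN54 and ANAPC11. PRIM1 was dim, with mean levels of −5.30 in CPE and −4.68 in CONTROL.

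Cell cycle probes that were lit on all arrays but not well above background on all 8 numbered 19. Of these 12 were well above background on more CPE than CONTROL arrays, 1 on more CONTROL arrays (MCM3AP) and 6 on none. Over all such spots, 34.8% were above on more CPE arrays and 7.67% on more CONTROL arrays. AURKA and AURKB, the Aurora kinases of mitosis, each had 1 probe lit on all arrays, which was well above background on 3 CPE and 0 CONTROL arrays. That of AURKA had levels of −5.64, −5.58, −5.81 and −6.0 in CPE and was not well above background in CONTROL, with measured levels of −6.96, −7.35, −7.01 and −7.34. That of AURKB read −5.80, −5.66, −6.04 and −5.89 in CPE and −7.0, −7.52, −7.55 and −7.34 in CONTROL, again not well above background there. The groups did not overlap at either probe, but no fold is given, because neither was measured on all arrays of any group. Another AURKB probe, which was lit on none of the arrays, was well above background on 3 CPE and 3 CONTROL arrays.

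Some genes without a fully lit probe had values on some arrays, which are given as a description and were not tested. CCNE1, the cyclin E1 of the G1 to S transition, was well above background on all 4 CPE arrays, at −3.16, −4.0, −2.55 and −3.41, and not on the 3 lit CONTROL arrays, which read −5.43, −5.98 and −5.75. CDKN3, a phosphatase that acts on CDK2, was likewise well above background on 4 CPE arrays, at −5.44, −5.53, −4.92 and −5.61, and not on the 2 lit CONTROL arrays. CDKN1B, the inhibitor p27 of resting cells, read 0.93, 1.54 and 0.83 on the lit CPE arrays 1, 3 and 4, against 0.63, 0.79, 0.41 and −0.26 on the 4 CONTROL arrays. Its CPE values lay above its CONTROL values, with CPE array 3 at 0.93 in background-subtracted signal. E2F4, an E2F factor that acts mainly as a repressor in resting cells, read −4.26, −3.42 and −4.12 on 3 CPE arrays, against −4.93, −5.09 and −5.25 on 3 CONTROL arrays. A second RBL2 probe lay the other way, at −5.14, −5.34 and −5.25 on 3 CPE arrays, against −4.32, −4.18, −4.41 and −4.06 in CONTROL. These were picked from 18 probes lit on several arrays of each group but not on all 8. Among the others, CCNA1 (−1.05), CCNB1IP1 (−0.37), CENPO (−0.27), CDC37L1 (−0.07) and PLK4 (−0.03) had lower means in CPE in processed signal. AURKAIP1, CDC14B, CDKN1C, CDKN2AIPNL, CDKN2C, PLK2, PLK3 and a second CCNE1 probe had higher means. Not all of these probes were well above background.

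The authors' deposited table holds group averages of log2 values, in which 2 of the 35 genes had a CPE average above the CONTROL average. The median difference over all genes tested in the authors' deposited table was −1.10, and 21 of the 35 genes lay above that median. Relative to it, TOP2A, CCNB1, MCM4 and MCM6 were higher and RB1, CCND1 and CCND3 lower in the authors' deposited table. Those averages come from the same arrays, so the shared directions are not separate evidence. Before the median was taken off, the CPE average was the lower one for each of these genes.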

How the data were processed

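The authors' deposited scanner files hold spot intensity made with Agilent Feature Extraction 10.10.1.1, per the file headers. The processed signal intensity was background-subtracted by that software, and on CPE array 3 also corrected with a fitted surface. The authors' deposited table holds log2 values averaged per group, with column medians of −0.60 (CPE) and 0.46 (CONTROL). Their differences correlated at r = 0.990 across the genes tested with the changes used here. Their scaling and centring are unknown.

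Control spots and outliers were left out. A spot was lit where the 90th percentile of log2 median signal over its 61 nearest spots exceeded the array's 90th percentile of these local values minus 1.5. Lit spots well above background on all 8 arrays were kept, as log2 processed signal minus the array's 75th percentile. Duplicate spots were averaged, and the probe with the highest mean stood for a gene. Probes were named through RefSeq accessions or symbols (26832 by accession, 6656 by a file symbol found in RefSeq, 1387 by file symbol alone, 8778 unnamed). Of the cell cycle genes, 3 carry an older symbol in the files. AURKC, CENPS and CENPX, whose file symbols lie outside the rule, were left out. Groups were compared with limma 3.58.1 (lmFit, eBayes, two-sided) in R 4.3.3, fitted on 4786 genes with Benjamini-Hochberg adjustment over all of them, and on 7118 probes for further probes of a gene. The threshold was an adjusted p of 0.05. The number of arrays limits the precision. The fit was tested on simulated data.

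Named genes were, among those tested, up to 10 largest rises and falls past the threshold, up to 2 per role, every gene with several tested probes, and common markers of cycling. Of those markers, MKI67 had no probe under that symbol. The wider list gave up to 3 rises and 3 falls. BUB3, RBL2, CDC27, CDC73, CDKN2AIP, KIZ and the genes not tested were named outside that rule, after their values were seen. The genes, lists and tests were chosen with earlier results of these data known. The alternatives were other scalings, local centring, background corrections, filters, lit areas, variance models and thresholds, each array left out, the replicate number as a block and, added after seeing the data, background-subtracted signal. The normexp correction used median signal. A planned search of promoters for motifs was not run.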

Additional observations from a re-analysis of the deposited data

Results flagged for a closer look

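Of 58 groups of 4 arrays examined (29 named genes in 2 groups), 6 held 1 array whose gap to the nearest other array, as a share of the group's range, passed the critical value of Dixon's test, which chance gives in about 1 group in 20. BUB1 read −5.27 and TOP2A −2.82 on CPE array 3, and in background-subtracted signal these values were −4.14 and −1.59. CCNA2 read −4.54 and CDKN2C 1.17 on CPE array 2, at values that were the same in background-subtracted signal. CDC5L read −1.62 and CDKN2AIPNL −2.42 on CONTROL array 4, below the other CONTROL arrays.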

How the results depend on the processing

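Against 12 genes higher and 5 lower in CPE, the counts of higher genes were 0 with the 75th percentile over all spots, 2 with no scaling, 5 with normexp, 5 over the whole array (40 tested), 5 at an adjusted p under 0.01, and 1 with a minimum log2 change of 0.5 (treat). The counts of lower genes were 14 with the 75th percentile over all spots, 9 in background-subtracted signal, 9 with no filter on dim probes (46 tested), 3 with a lit limit of 1 log2 unit (25 tested), 3 at an adjusted p under 0.01, 2 with no scaling, 1 with normexp and 0 with treat. Over all 4786 genes 938 were higher and 1244 lower, and these counts were 5 and 2331 with the 75th percentile over all spots, 185 and 522 with no scaling, 633 and 624 with normexp, 129 and 259 with treat, and 574 and 837 at an adjusted p under 0.01. They were 1302 and 1569 in background-subtracted signal, 650 and 1239 of 6055 genes over the whole array, 1395 and 2022 of 8100 with no filter on dim probes, and 1005 and 1004 of 3949 with a lit limit of 1 log2 unit. At the lit limit of 1 log2 unit the called genes CDC23, CDC34, CDKN2AIPNL, CENPN, MCM4, RB1 and RBL1 were not kept and so not tested. Local centring gave 17 higher and 7 lower, against 1836 and 1620 over all genes. Leaving out each array gave 9 to 13 higher and 4 to 6 lower. With the replicate number as a block there were 11 higher and 5 lower, against 931 and 1219 over all genes. Deviations of same-numbered arrays correlated at −0.117, −0.169, 0.285 and 0.413, and not every array correlated best with its own number. Whether equal numbers mark shared material cannot be decided from these correlations, because each deviation also holds effects of the single array. The 75th percentile over all spots, which moved the median of all genes by −1.07, turned BUB1B to −0.70, CCNB1 to −0.44, CDK4 to −0.70, CDKN2AIPNL to −0.30, CENPN to −0.14, CENPT to −0.84, MCM4 to −0.56, MCM6 to −0.62, RBL1 to −0.78 and TOP2A to −0.073. No scaling and the whole array each moved that median by −0.12. BUB1 turned to 1.29 with no filter on dim probes and to 1.24 with a filter on 1 group, through another probe. CDKN1A turned to 0.32 as a mean over its probes. With normexp 11 named genes lost their call (BUB1B, CCNB1, CCND1, CDC23, CDK4, CDKN2B, CENPN, CENPT, MCM4, RB1 and RBL1), and over the whole array BUB1B, CCNB1, CDK4, CDKN2AIPNL, CENPT, MCM4, MCM6, RBL1 and TOP2A did. With local centring MCM4 did. Other causes were not tested. Nearness to background limits RB1, CCND1 and CDKN2B.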

Other observations

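A CCNA2 probe that was well above background on 4 CPE and 3 CONTROL arrays read −3.54, −4.38, −1.97 and −3.55 in CPE and −4.25, −4.04, −4.26 and −5.23 in CONTROL, with overlap between the groups. CDC14B, a phosphatase that reverses CDK phosphorylation, read −1.08, 0.26 and −1.43 on the 3 CPE arrays where it was lit, and −1.81, −1.83 and −1.94 on 3 CONTROL arrays.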
